A study of Mus musculus with 6 samples.

Results

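The Endothelial cells were the 288 cells to which the deposited annotation of a cultured mouse RPE/choroid preparation gave that name, 1.13% of its 25428 cells. Endothelial cells line blood vessels. In the choroid they form large vessels and, next to the retinal pigment epithelium (RPE), a dense capillary bed called the choriocapillaris, whose thin walls carry pores (fenestrae) closed by a diaphragm made of the protein PLVAP. New vessels grow from tip cells, which lead a sprout and make apelin, endocan and angiopoietin-2, and outgrowth of choroidal vessels through the membrane under the RPE is known as choroidal neovascularization.

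The cells came from the eyecups of male C57BL/6J mice aged 12 to 16 months, dissociated without the neural retina and kept in culture before droplet capture, so a freshly isolated choroid was not measured here. Of the 6 samples, 3 were Dram2 wt/wt and 3 Dram2 ko/ko; the ko allele lacks exon 4 of Dram2 in every cell of the animal, not in endothelium alone. Libraries were 10x Genomics 3′ v2, which tag each captured transcript with a unique molecular identifier (UMI) near its 3′ end. Dram2 ko/ko replicate 3 was the only sample of batch 2, and the labels do not state whether replicates were separate animals or cultures, so p-values measure the spread between these samples. The deposited cell names carry no droplet barcode, and barcodes shared between libraries could not be counted.

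The numbers of Endothelial cells were 92, 36 and 50 in the wt/wt samples and 23, 49 and 38 in the ko/ko samples, with 416514 to 1140409 UMIs in all per sample. The median cell held 9262 UMIs and 3528 genes, against 26110 UMIs in a Fibroblast cell, the most frequent type. Medians per sample ran from 6981 UMIs (ko/ko replicate 2) to 14910 (ko/ko replicate 1). Levels are given below as CPM, the UMIs of a gene in the summed cells scaled to 1000000 UMIs in all, which count 3′ ends and are not scaled by gene length.

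Nearly all Endothelial cells held several of the 6 markers. Of the 288 cells, 287 had a UMI of at least 2 of the 6 markers Pecam1, Plvap, Cdh5, Cldn5, Emcn and Apln, 279 of at least 4, and 118 of all 6. In the other 7 types at most 0.201% of cells, those named RPE, reached 4 markers. Pecam1, an adhesion molecule of endothelial contacts, stood at 642, 642 and 546 CPM in the wt/wt samples and 641, 551 and 895 CPM in the ko/ko samples. Cdh5, the endothelial cadherin, was at 951 CPM over all samples and at most 8.30 CPM in another type. The tight-junction gene Cldn5 was at 269 CPM and at most 0.0504 CPM elsewhere. These types were clusters of the same cells, so the differences between types are a description and were not tested. The 6 markers were chosen with earlier results of these data known, so their presence is no test of the name.

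**Figure D1:**
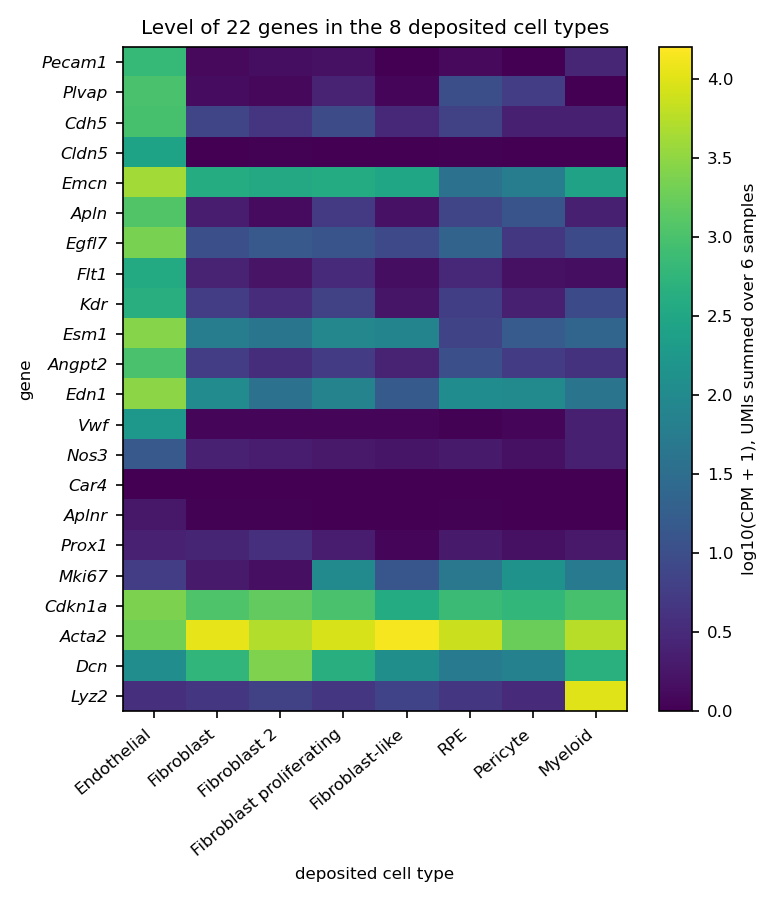
Level of 22 genes (rows) in the 8 deposited cell types (columns), as log10(CPM + 1) of the UMIs summed over the 6 samples. Pecam1, Plvap, Cdh5, Cldn5 and Apln are bright in the Endothelial column alone, Emcn is also seen in the fibroblast types, and Car4 is dark throughout.

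Emcn, the sialomucin endomucin of capillaries and veins, was the least restricted of the 6 markers. Its level was 4222 CPM in Endothelial and 403 CPM in Fibroblast cells. With each cell thinned to 5000 UMIs, 97.2% of 249 Endothelial cells and 72.3% of 12294 Fibroblast cells had an Emcn UMI, while Pecam1 was found in 93.6% and 0.106%. Median depths before thinning were 10340 and 26640 UMIs. Unthinned, 97.9% of the Endothelial cells had an Emcn UMI. The Fibroblast share of Emcn was thus unlike that of Pecam1, Plvap (0.203%), Cldn5 (0.0407%) or Cdh5 (2.87%) at the same depth.

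Markers of other cells were at 0 or a few CPM except those of Fibroblast and mural cells. No UMI of 6 melanocyte markers or of 5 red blood cell markers was counted, 5 of 7 Schwann markers and 4 of 8 myeloid markers were at 0, and Lyz2, the lysozyme of myeloid cells, was at 2.79 CPM against 9995 CPM in Myeloid cells. Of 8 RPE markers Rpe65, Krt8, Rlbp1 and Ttr were at 0 and the sum was 3.62 CPM, and the sums were 1.95 CPM for 5 photoreceptor markers and 0.279 CPM for 5 lymphoid markers. Of 10 markers of pericytes and smooth muscle, Abcc9 and Higd1b were at 0, Des, Pdgfrb and Cspg4 were at 15.9, 14.5 and 10.3 CPM, and the sum was 57.1 CPM against 371 CPM in Fibroblast cells; it ran from 34.2 to 106 CPM in wt/wt and from 26.4 to 83.7 CPM in ko/ko samples. All 8 Fibroblast markers were present, at a summed 1091 CPM against 5604 CPM in Fibroblast cells. Mgp, a matrix calcification inhibitor, made up 648 CPM of this sum and had UMIs in 66.7% of the cells. The collagen-binding proteoglycan Dcn was at 115 CPM, and its 413 UMIs came from 53 cells. The sums over the Fibroblast markers were 710, 2101 and 1275 CPM in the wt/wt samples and 1169, 963 and 818 CPM in the ko/ko samples, with wt/wt replicate 2 the highest. No doublet caller was run.

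By the ratio to the highest other type, each plus 1 CPM, the 30 most restricted genes (level 20 CPM or more) were led by Adgrl4, an adhesion receptor of sprouting endothelium, at 446 CPM against 0.607 CPM. Cldn5 and Pecam1 came next, then Mmrn2, a secreted matrix protein that binds CD93, at 894 CPM against 3.15 CPM. Cdh5 (ratio 102), Plvap (96.2) and Apln (92.3) were also among the 30. The set held receptors of vessel growth, with Flt1 and Kdr (VEGF receptors) at 367 and 444 CPM, Tie1 at 91.1 CPM and Robo4, a guidance receptor of endothelium, at 125 CPM. Secreted products in the set were Egfl7, a vessel matrix protein, at 2250 CPM, and Angpt2, angiopoietin-2, at 1001 CPM. Erg, an ETS-family transcription factor that maintains endothelial identity, was at 117 CPM against 0.269 CPM. Ctla2a, a cathepsin inhibitor, reached 9118 CPM, but 35.7% of its 3′ sequence is shared with other annotated genes and Gm49393 overlaps it on the same strand. Il23a, the p19 subunit of the cytokine interleukin-23, was the fifth by this ratio, at 216 CPM against 0.152 CPM.

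Promoter windows are shown for 4 of these genes because their products act as ligand (Apln), matrix (Egfl7), growth factor receptor (Flt1) and guidance receptor (Robo4). Each is the 250 bases before the transcription start that RefSeq lists first (GRCm38.p6, 5′ to 3′ on the gene's strand): Apln on chrX:48034854-48035103 (minus strand), Egfl7 on chr2:26580833-26581082 (plus strand), Flt1 on chr5:147726012-147726261 (minus strand) and Robo4 on chr9:37401722-37401971 (plus strand). Capitals mark the 6-letter word AGGAAG, or CTTCCT where it lies on the other strand, which holds the GGAA core that ETS factors such as ERG and FLI1 bind.
Apln: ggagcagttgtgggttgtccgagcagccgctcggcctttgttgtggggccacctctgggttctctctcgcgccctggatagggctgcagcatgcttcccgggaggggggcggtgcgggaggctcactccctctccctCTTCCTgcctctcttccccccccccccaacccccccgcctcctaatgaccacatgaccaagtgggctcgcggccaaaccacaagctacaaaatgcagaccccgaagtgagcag
Egfl7: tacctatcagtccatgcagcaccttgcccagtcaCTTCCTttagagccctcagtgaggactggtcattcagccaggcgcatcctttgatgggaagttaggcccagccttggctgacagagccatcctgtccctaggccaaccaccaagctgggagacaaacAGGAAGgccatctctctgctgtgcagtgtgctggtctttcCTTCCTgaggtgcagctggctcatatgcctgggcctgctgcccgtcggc
Flt1: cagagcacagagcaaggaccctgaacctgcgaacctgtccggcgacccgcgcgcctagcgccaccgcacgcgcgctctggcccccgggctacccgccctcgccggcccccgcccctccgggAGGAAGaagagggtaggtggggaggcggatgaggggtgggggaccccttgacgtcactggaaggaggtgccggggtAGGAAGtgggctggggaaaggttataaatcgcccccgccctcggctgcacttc
Robo4: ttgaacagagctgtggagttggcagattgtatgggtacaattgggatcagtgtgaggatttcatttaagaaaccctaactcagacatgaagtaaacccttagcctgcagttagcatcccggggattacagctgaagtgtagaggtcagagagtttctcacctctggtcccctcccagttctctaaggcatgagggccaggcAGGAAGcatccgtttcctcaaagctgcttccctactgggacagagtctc
The word stood 113 bases before the start in Apln and 49 in Robo4. Egfl7 had it at 216, 89 and 49 bases and Flt1 at 129 and 53 bases. Of the 30 genes, 20 matched a window, and 11 of these (55.0%) held the word on either strand. Every window shown held it, while those of Kdr, Cldn5, Erg, Myct1 and Clec14a, among others, held none. Of all 27025 genes with a window, 29.2% did. A match of letters is a description and no evidence of binding.

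Genes of a choriocapillaris list differed widely in level, with 6 of 11 at 10 CPM or more. Plvap was at 847, 1276 and 841 CPM in wt/wt and 1044, 601 and 1632 CPM in ko/ko samples. Of the 11 matched genes of the list, Emcn, Esm1, Plvap and Kdr were at 444 CPM or more. Car4, a carbonic anhydrase of capillaries, had no UMI in the 288 cells, which allows a share of up to 1.04% of cells with a UMI. Gpihbp1, which anchors lipoprotein lipase in capillaries, was at 1.11 CPM, the fatty acid carrier Cd36 at 0.279 CPM and the apelin receptor Aplnr at 0.836 CPM, from 3 UMIs in 1 cell. Endothelial nitric oxide synthase, Nos3, was at 13.6 CPM.

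Tip-cell genes were abundant. Of the 20 genes of this list 19 were at 10 CPM or more and 13 were higher in Endothelial than in any other type. For 8 the ratio to the highest other type, each plus 1 CPM, was over 2. Esm1 (endocan) was at 2719 CPM, Apln at 1147 CPM, Adm (adrenomedullin) at 859 CPM, Pgf (placental growth factor) at 800 CPM and Pdgfb, which recruits pericytes, at 396 CPM. Dll4, the Notch ligand of tip cells, was at only 11.7 CPM, from 42 UMIs in 29 cells. The chemokine receptor Cxcr4 was at 5.29 CPM, lower than in another type (12.3 CPM). Thinned to 5000 UMIs, Esm1 was found in 83.5% of Endothelial cells (14.1% of Fibroblast cells), Angpt2 in 91.2% (2.14%) and Apln in 75.1% (0.708%). Other genes of the list went the other way, with Nid2 in 23.7% (51.8%), Plaur in 47.8% (54.55%) and Unc5b in 25.3% (27.6%). Lamb1 was nearly alike at 66.3% (65.0%).

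Ligands and receptors of the vascular growth pathways were unevenly represented. Among ligands, Apln, Angpt2 and Pgf were highest in Endothelial, whereas Vegfa (62.7 CPM), Vegfc (21.2 CPM) and Angpt1 (0.557 CPM) were higher in another type. All 8 receptors of the list were highest in Endothelial, from Nrp2, a VEGF co-receptor, at 481 CPM to Aplnr. Tek, the receptor of the angiopoietins, was at 52.1 CPM and Flt4, the VEGF-C receptor, at 66.8 CPM. In the BMP and TGF-beta list, Eng (endoglin) was at 1252 CPM, the receptors Acvrl1 and Bmpr2 at 338 and 282 CPM, and their targets Id3 and Id1 at 1549 and 726 CPM. In the Notch list, Hes1 was at 267 CPM, Jag1 at 251 CPM, Notch1 at 128 CPM and Notch4 at 57.7 CPM, and Heyl had no UMI.

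No single vessel class accounted for the level of its markers. Of 15 arterial genes, Sox17 (119 CPM) and Nrp1 (276 CPM) were clear, but the arterial connexin Gja5 was at 1.11 CPM and Bmx at 1.39 CPM. Of 12 venous genes, Vwf (von Willebrand factor, 175 CPM) and Nr2f2 (68.5 CPM) were present, while Ackr1 and Slc38a5 had no UMI. Of 9 lymphatic genes 4 were at 10 CPM or more, Sox18 (188 CPM), which blood endothelium also expresses, Pdpn (podoplanin, 78.0 CPM against 649 CPM in Fibroblast 2), Nr2f2 and Flt4. Prox1, the lymphatic master regulator, was at 1.39 CPM and Ccl21a, Mmrn1 and Reln at 0. Lyve1 was at 6.41 CPM, from 23 UMIs in 9 cells.

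Vasoactive and inflammatory genes included Edn1 (endothelin-1) at 2959 CPM against at most 108 CPM elsewhere, the chemokine Cxcl12 at 1323 CPM against 306 CPM, Procr, the protein C receptor, at 1044 CPM against 103 CPM, and the leukocyte adhesion molecule Icam1 at 590 CPM against 132 CPM. The adhesion molecules Selp (19.5 CPM) and Sele (8.36 CPM) were low. In the basement membrane list Col4a1 (2168 CPM) and Col4a2 (1204 CPM), the chains of vascular type IV collagen, exceeded their level in the other types (963 and 384 CPM).

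Division genes were low and the cell cycle inhibitor Cdkn1a (p21) was high. None of 16 proliferation genes was highest in Endothelial, and Mki67 was at 4.73 CPM, from 17 UMIs in 5 cells. Thinned, 1.20% of Endothelial and 0.578% of Fibroblast cells had an Mki67 UMI. The annotation held a separate type, Fibroblast proliferating (6465 cells), so the latter share is not that of all fibroblasts. Cdkn1a was at 2767, 1691 and 2154 CPM in wt/wt and 2106, 2885 and 2233 CPM in ko/ko samples, against 1529 CPM in Fibroblast 2, the next type. Of 17 genes of a p53 target list 9 were highest in Endothelial, among them Bax (1479 CPM), which promotes apoptosis, and Btg2 (240 CPM), while Mdm2 (729 CPM) and Phlda3 (769 CPM) were not.

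Contractile genes were counted too. Acta2 (smooth muscle actin) was at 2021 CPM and Tagln (transgelin) at 2926 CPM, against 14010 and 10880 CPM in Fibroblast-like cells. An Acta2 UMI was found in 256 of the 288 cells. This count is of unthinned cells and was not set against other types at equal depth. RNA from other cells was not estimated.

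Genes that varied most like Plvap, Apln, Vwf, Cdkn1a and Acta2 across the cells were picked by their correlation. Within each sample, Spearman's rho was computed over cells thinned to 5000 UMIs among genes with a UMI in 20% or more of them, and averaged over samples with the number of cells as weight (249 cells in all). Cells of a sample share its library and its free RNA, so these values are descriptions. Plvap was most closely accompanied by Sgk1, a serum-induced kinase, at 0.62 (0.41 to 0.75 in single samples), then by Eng at 0.58, Emcn at 0.53, Adgrl4 at 0.48 and Kdr at 0.46. Apln went with Fam162a, a hypoxia-inducible mitochondrial gene, at 0.46, with Adm at 0.43, with Esm1, Rtn4 and Egfl7 at 0.40 and with the lactate dehydrogenase gene Ldha at 0.39. Vwf went with Ace, the angiotensin-converting enzyme, at 0.43 and with Cxcl12 at 0.42. Cdkn1a went with Srgn, a proteoglycan core of secretory granules, at 0.37, with the p53 targets Mdm2 at 0.37 and Bax at 0.34, and Acta2 with Tagln at 0.45.

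Since these genes were picked for their rho with 1 of the 5, high values within such a set follow from the choice. The 5 genes had lower values with each other, of which examples were 0.20 for Plvap with Apln, 0.21 for Plvap with Vwf, -0.06 for Apln with Vwf, 0.28 for Apln with Cdkn1a, and -0.19 for Plvap with Acta2. Away from the 5 the sets were not separate. Esm1 went with Plvap at 0.41 as it did with Apln, and with Srgn, of the Cdkn1a set, at 0.39, while its value with Adm, of its own set, was 0.09. Of the 187 thinned cells with an Apln UMI, 50.8% also had an Il23a UMI, against 14.5% of the 62 without. A Vwf UMI was found in 45.3% of cells with Plvap and 15.8% of those without, and in 38.5% and 38.7% of cells with and without Apln. Unlike rho, these percentages pool the cells of all samples, so differences between samples enter them. The share of cells with a Plvap UMI ran from 61.9% in ko/ko replicate 2 to 96.9% in ko/ko replicate 3.

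**Figure D2:**
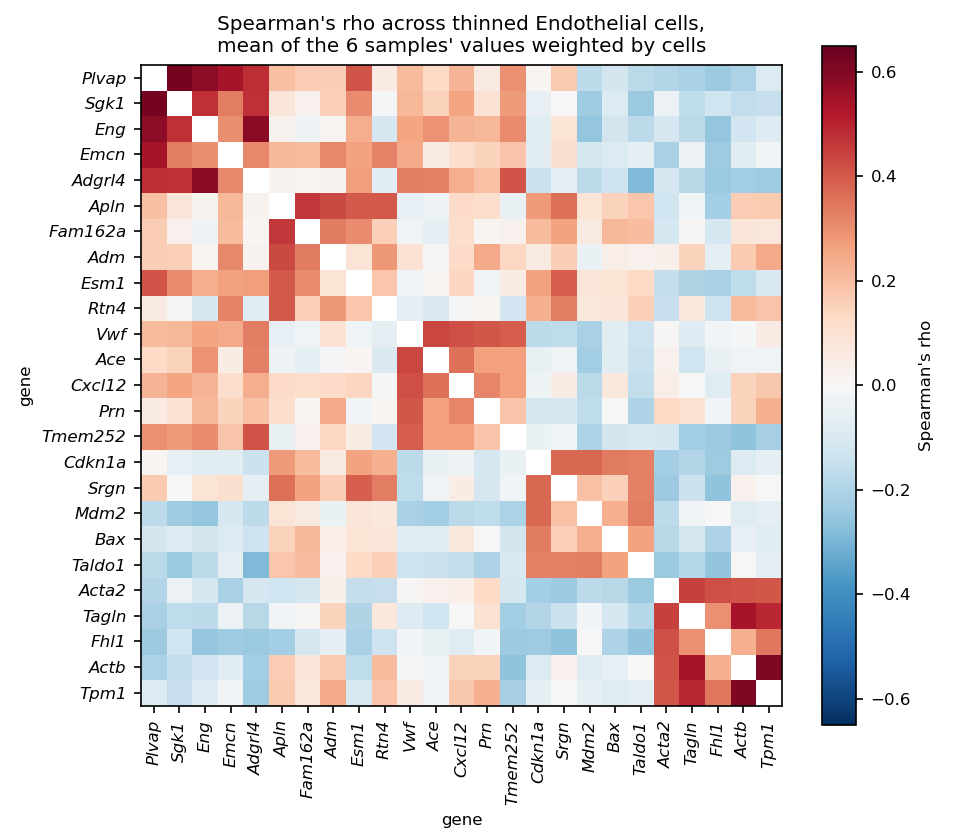
Spearman's rho between 25 genes over 249 Endothelial cells thinned to 5000 UMIs, as the mean of the values within the 6 samples weighted by cells, for Plvap, Apln, Vwf, Cdkn1a and Acta2, each followed by its 4 closest genes. High values beside each of the 5 were fixed by that choice, and pairs from different sets, such as Plvap and Esm1 at 0.41, reached values above those of pairs within a set, such as Adm and Esm1 at 0.09.

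The share of Endothelial cells did not differ between genotypes beyond the spread of samples. It was 2.41%, 0.782% and 1.16% in the wt/wt samples and 1.08%, 0.737% and 0.976% in the ko/ko samples, and the ranges overlapped. The difference of means was -0.52 percentage points (wt/wt 1.45% ± 0.850, ko/ko 0.929% ± 0.174, SD, n = 3 each, exact two-sided permutation p = 0.4, where 0.1 is the smallest that 3 against 3 can give). Without wt/wt replicate 1, which held 92 of the cells, it was -0.04 points. As a share of cells outside the 4 fibroblast types, Endothelial cells ranged from 5.58% to 39.8% in wt/wt and from 5.85% to 20.7% in ko/ko samples.

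**Figure D3:**
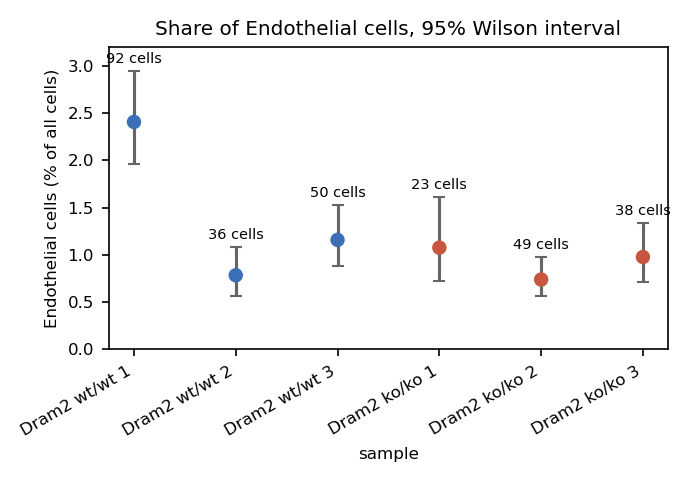
Endothelial cells as a percentage of all cells in each of the 6 samples, with 95% Wilson intervals that cover counting error only and the number of Endothelial cells above each. Dram2 wt/wt replicate 1 stands highest at 2.41%, and the other 5 samples lie between 0.737% and 1.16%.

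The shares of thinned Endothelial cells with a UMI were compared for 26 genes, the 6 markers, the tip-cell list and Mki67. None passed an adjusted p of 0.05, and with 3 samples against 3 none could. Only Mcam, a cell adhesion molecule, did not overlap, at 45.0%, 45.2% and 35.7% in wt/wt and 72.7%, 47.6% and 53.1% in ko/ko samples (exact permutation p = 0.1). Unthinned or at 2500 UMIs it overlapped (exact permutation p = 0.5 in each), and unthinned Kcne3, Lamb1 and Plaur did not overlap, so which genes stood apart turned on the thinning. Mcam was also counted in 23.2% of Fibroblast cells. Apln had UMIs in 82.5%, 64.5% and 81.0% of wt/wt and 68.2%, 69.0% and 71.9% of ko/ko cells, an order opposite to that of its CPM level, so no order was read from it.

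Dram2, the disrupted gene (chr3:106547798-106575890, GRCm38, plus strand), encodes a lysosomal membrane protein. Its level in the Endothelial cells was 49.1, 37.5 and 44.8 CPM in the wt/wt samples and 36.0, 19.3 and 31.5 CPM in the ko/ko samples. All ko/ko samples lay below all wt/wt samples. This came to -0.64 (SE 0.31) as a log2 fold change, ko/ko minus wt/wt, with an unadjusted p of 0.060 and 0.941 after adjustment (voom-limma). Without ko/ko replicate 2, the lowest sample, it was -0.36, and without any other single sample it lay between -0.80 and -0.53. Reads at the 3′ end lie outside exon 4, so these counts do not check the deletion. The related Dram1 stood at 19.3, 30.9 and 28.3 CPM in wt/wt and 38.4, 23.6 and 22.5 CPM in ko/ko samples, which overlapped.

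Over all genes, 0 of the 6682 tested in the Endothelial sums were called between genotypes (0.0%, voom-limma, adjusted p under 0.05), and none therefore with a fold change of 2 as well. The lowest adjusted p was 0.105. At an unadjusted p under 0.05 there were 350 genes (5.24%), 130 higher and 220 lower in ko/ko. Samples of the genotypes did not overlap for 704 genes (10.5%). The edgeR quasi-likelihood test called 0 genes (342 unadjusted), and DESeq2 called 13, all lower in ko/ko (0.195%). Without ko/ko replicate 1, voom-limma called 3 genes, Wdr89, Rps20 and Gm9794, all lower. The median log2 fold change over the tested genes was -0.0022.

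Il23a had among the lowest p of the genes higher in ko/ko whose samples did not overlap. It lies at chr10:128296139-128298752 (GRCm38). Its level was 199, 81.6 and 151 CPM in wt/wt and 372, 300.3 and 259 CPM in ko/ko samples, without overlap. The log2 fold change was 1.14 (SE 0.26, unadjusted p = 0.00074, adjusted p = 0.319, voom-limma), and without 1 sample at a time it stayed between 0.85 and 1.45. The other 4 named genes of that direction were Tcim, a regulator of Wnt signalling (log2 fold change 0.81), Sp5, a Wnt-responsive transcription factor (0.86), the splicing factor Khdrbs3 (0.78) and the endosomal protein Plekhf2 (0.91). None of these was called, and no overlap was a condition for naming them.

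None of the 6 markers was called between genotypes. Of them, Apln (chrX:48025146-48034853, GRCm38) was the exception in that its samples did not overlap, at 1219, 571 and 1061 CPM in wt/wt and 1306, 1259 and 1413 CPM in ko/ko samples. Its log2 fold change was 0.58 (SE 0.23, unadjusted p = 0.028, adjusted p = 0.923), and 0.25 without wt/wt replicate 2, which held the lowest value. Pecam1, Cdh5, Cldn5, Plvap and Emcn had log2 fold changes between -0.07 and 0.30, and their samples overlapped. The highest Plvap and Emcn values, 1632 and 6465 CPM, were both in ko/ko replicate 3, the batch 2 sample. Among batch 1 samples alone the log2 fold changes of Plvap and Emcn were -0.26 and 0.07. Without ko/ko replicate 2, whose Plvap, Cdh5 and Pecam1 were the lowest of the ko/ko samples, they were 0.47 for Plvap (0.08 with all samples), 0.30 for Cdh5 (0.08) and 0.35 for Pecam1 (0.19).

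**Figure D4:**
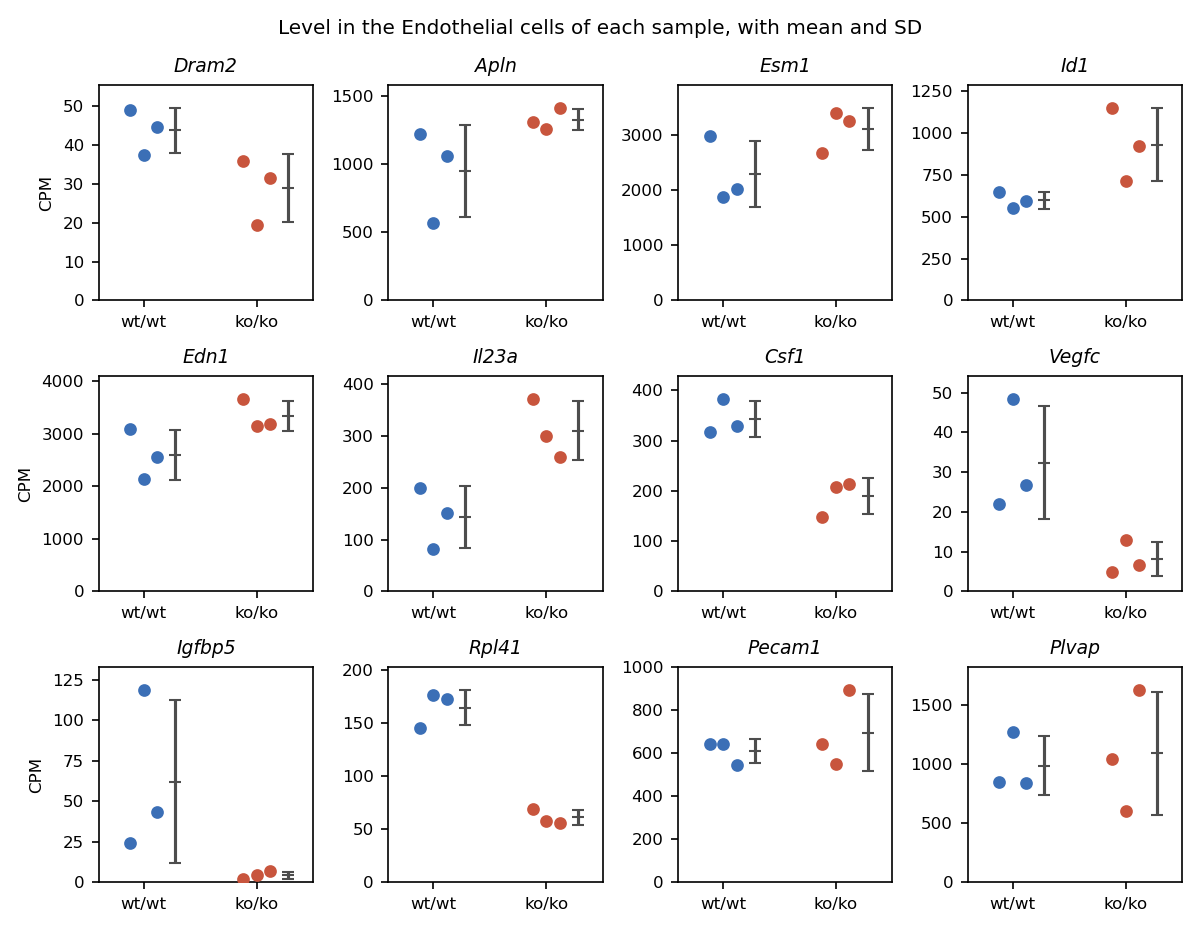
Level (CPM, linear axes from 0) of 12 genes in the Endothelial cells of the 3 Dram2 wt/wt (blue) and 3 Dram2 ko/ko (red) samples; each point is 1 sample, left to right replicates 1 to 3, and the bars give mean and SD. Dram2, Csf1, Vegfc, Igfbp5 and Rpl41 lie lower and Apln, Id1, Edn1 and Il23a higher in ko/ko without overlap, while Esm1, Pecam1 and Plvap overlap.

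Endothelial identity genes were balanced around 0 over all samples. Of 34 pan-endothelial genes, all of them highest in Endothelial, 31 were tested, 15 were higher and 16 lower in ko/ko, and the median log2 fold change was -0.01. This balance depended on single samples, in both directions. It moved most without ko/ko replicate 2, the sample with the lowest ko/ko values of Pecam1, Plvap, Cdh5, Kdr and Flt1 and the lowest median UMI count. Without it 30 of the 31 were higher in ko/ko and the median was 0.32, against a range of -0.13 to 0.08 without any other single sample. Without ko/ko replicate 3, the batch 2 sample, 10 were higher and 21 lower. The counts were 12 and 19 without ko/ko replicate 1, and 21 and 10 without wt/wt replicate 2. In the fit of all samples, 2 of the 31 had an unadjusted p under 0.05, both higher in ko/ko, against 5.24% of all tested genes. Sox17 stood at 126, 61.7 and 49.2 CPM against 283, 94.4 and 138 CPM, and Ecscr, a regulator of endothelial migration, at 633, 505 and 503 CPM against 819, 618 and 843 CPM. Both overlapped between genotypes. Among the 11 junction genes tested, Jam2, F11r, Gja1 and Icam2 did not overlap, against 10.5% of all tested genes, and the list's median was 0.08. Of these, F11r and Jam2, members of one adhesion family, had unadjusted p of 0.040 and 0.024; Jam2 ranged from 23.9 to 44.1 CPM in wt/wt and from 51.8 to 55.2 CPM in ko/ko samples. Without wt/wt replicate 3 the log2 fold changes were 0.26 for F11r (0.40 with all samples) and 0.46 for Jam2 (0.69).

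Tip-cell genes leaned higher in ko/ko. Of 18 tested, 16 had a positive log2 fold change, and the median was 0.34 against -0.0022 over all tested genes. Those with an unadjusted p under 0.05 were 2 of the 18, Apln and Esm1, against 5.24% of all tested genes, and none was called. Esm1 stood at 2988, 1876 and 2027 CPM in wt/wt and 2675, 3404 and 3259 CPM in ko/ko samples, which overlapped (log2 fold change 0.49, SE 0.19). Without ko/ko replicate 1 the list's median was 0.16, with 13 of 18 higher. Without ko/ko replicate 3, the batch 2 sample, 12 of 18 were higher with a median of 0.25. Batch as a covariate, a term set by that sample alone, gave the same count and is no separate check. Pgf and Adm had log2 fold changes of 0.62 and 0.38, whereas Angpt2 was at 0.03, Nrp2 at -0.08 and the lowest gene of the list at -0.61. Samples did not overlap for 2 of the 18, Apln and Kcne3, against 10.5% of all tested genes. Apln was higher in ko/ko, whereas the mean share of Endothelial cells with a Kcne3 UMI was lower in ko/ko. Unthinned, this share was 24.7% in wt/wt and 13.5% in ko/ko samples, and in thinned cells 12.8% and 8.36%. These are shares of cells and not CPM levels. Dll4 did not pass the low-count filter, with 8, 4 and 3 UMIs in wt/wt and 10, 8 and 9 in ko/ko samples. The UMIs in all were 1140409, 453627 and 670367 in wt/wt and 416514, 466151 and 443745 in ko/ko samples. Relative to these, all ko/ko samples lay above all wt/wt samples. The fit without the filter called no gene.

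Glycolysis and hypoxia genes showed a similar lean. Of 16 tested, 12 were higher in ko/ko, with a median log2 fold change of 0.29. Ldha was at 1707, 1201 and 1653 CPM in wt/wt and 1844, 1873 and 2089 CPM in ko/ko samples without overlap (0.39, SE 0.17, unadjusted p = 0.041), although 22.4% of its 3′ sequence is shared with other genes. Higd1a, a hypoxia-induced mitochondrial protein, went the other way at -0.86. Wt/wt replicate 2 held the lowest wt/wt value of Apln, Esm1, Pgf, Adm and Ldha, and also the highest sum of Fibroblast markers. Without it the log2 fold changes were 0.25 for Apln, 0.36 for Esm1, 0.10 for Pgf, 0.26 for Adm and 0.24 for Ldha. Adm was lower still without ko/ko replicate 3, at 0.19. Without wt/wt replicate 2 the list medians were 0.28 (tip cell) and 0.19 (glycolysis and hypoxia). The latter was 0.17 without ko/ko replicate 3, the batch 2 sample, and 0.16 with batch as a covariate, which rests on the same samples.

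No gene of the signalling lists was called. Non-overlap was found for 1 gene of 17 in the BMP and TGF-beta list, 2 of 7 in the ligand list and 2 of 10 in the leukocyte list, against 10.5% of all tested genes, so the genes named here are descriptions. Id1, a target of BMP receptors, was at 646, 549 and 594 CPM in wt/wt and 1150, 712 and 924 CPM in ko/ko samples without overlap (0.64, SE 0.19, unadjusted p = 0.0041), while its list of 17 tested genes had a median of -0.06. Edn1 was at 3093, 2141 and 2560 CPM against 3666, 3149 and 3191 CPM (0.40, SE 0.17). Vegfc, a lymphatic growth factor, was low and lower still in ko/ko, with 25, 22 and 18 UMIs against 2, 6 and 3 (-1.67, SE 0.53, unadjusted p = 0.0073). In the leukocyte list, Csf1, the macrophage growth factor, was at 317, 384 and 328 CPM against 149, 208 and 214 CPM without overlap (-0.82, SE 0.19, unadjusted p = 0.00062, adjusted p = 0.319). The chemokine Ccl7 ranged from 21.9 to 86.5 CPM against 2.40 to 19.3 CPM. Csf1 and Ccl7 were higher in fibroblast types (984 CPM of Csf1 in Fibroblast cells) than in Endothelial.

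Mesenchymal genes leaned lower in ko/ko. Of 13 tested, 10 had a negative log2 fold change, with a median of -0.48. Acta2 stood at 2236, 3296 and 1908 CPM in wt/wt and 1947, 1703 and 739 CPM in ko/ko samples, which overlapped (-0.81, SE 0.31), and at -0.38 without ko/ko replicate 3. Zeb2, a repressor of epithelial genes, ranged from 73.7 to 94.0 CPM against 51.5 to 65.4 CPM without overlap (-0.48, unadjusted p = 0.050). Tagln stood at -0.03, a value that changed sign with the fit. Without the 2 Endothelial cells among the 5% of cells of their sample with the most UMIs, the list's median was -0.21 (8 of 12 lower). Without ko/ko replicate 2, 7 of 13 were lower and the median was -0.38. Of the 5 tested Fibroblast markers 4 were lower in ko/ko, with a median of -0.80, among them Dcn at 45.6, 474 and 128 CPM against 7.20, 36.5 and 90.1 CPM. Both lists hold Col1a1, Col1a2 and Col3a1, so those of them that were tested count in both medians. The sum of the Fibroblast markers per sample is given above, and its part in the mesenchymal list was not tested.

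**Figure D5:**
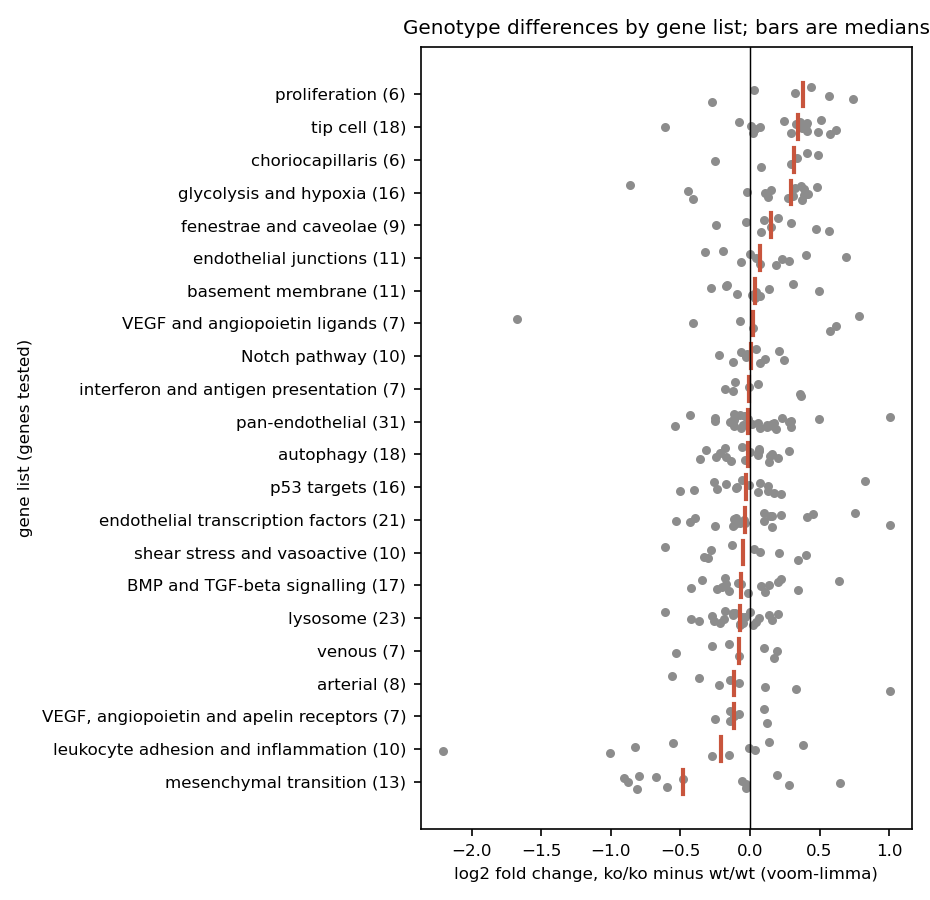
Log2 fold change (ko/ko minus wt/wt, voom-limma on Endothelial sums) of each tested gene (grey points) in the 22 lists with 5 or more tested genes (marker lists of other cell types are not shown), whose number is in parentheses; red bars are medians. Of the lists shown, the mesenchymal one has the lowest median, -0.48, and proliferation (6 genes), tip cell and choriocapillaris genes the highest. No gene was called. The proliferation median covers the tested genes among 16. The CPM summed over those 16 overlapped, at 147, 362 and 327 in wt/wt and 322, 356 and 126 in ko/ko samples.

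Lysosome and autophagy genes, the compartments in which DRAM2 and DRAM1 have been placed, were near the median of all genes. Of 23 lysosome genes tested, 7 were higher and 16 lower, with a median of -0.07; 1, the proton pump subunit Atp6v1h, had an unadjusted p under 0.05, against 5.24% of all tested genes. Of 18 autophagy genes 9 were higher and 9 lower, with a median of -0.02. For p53 targets the median was -0.03 over 16 genes, and for endothelial transcription factors -0.03 over 21.

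Among genes without overlap and with a mean of 10 CPM or more in 1 genotype, those lower in ko/ko with the lowest p were of another kind. Rpl41, a ribosomal protein gene, was at 146, 176 and 173 CPM in wt/wt and 69.6, 57.9 and 56.3 CPM in ko/ko samples (-1.38, SE 0.21, adjusted p = 0.105). Cox7c, a respiratory chain subunit (-1.62), the WD-repeat gene Wdr89 (-1.23), the ribosomal protein gene Rps20 (-1.43) and the processed pseudogene Gm11598 (-3.17) followed. Their lack of overlap was a condition of the choice. Between 22.3% and 44.7% of the 3′ sequence of these 5 genes is shared with other annotated genes, so that the assignment of their reads is uncertain. All 5 were among the 13 genes called by DESeq2, with log2 fold changes there between -1.19 and -2.91. Of the others among the 13, those reported here were Gm49393, Ndufc1, Rps15-ps2, Gm7808, Rpl36a-ps2, Gm9794 and Igfbp5, of which all but Gm49393 are named here after their values were seen. Of the 13, only Ndufc1 (5.50%) and Igfbp5 (0%) shared less than 20% of their 3′ sequence.

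Igfbp5 (chr1:72857932-72874884, GRCm38), a secreted binder of insulin-like growth factors, was at 24.5, 119 and 43.3 CPM in wt/wt and 2.40, 4.29 and 6.76 CPM in ko/ko samples, from 28, 54 and 29 against 1, 2 and 3 UMIs. The groups did not overlap. The voom-limma fit put the difference at -3.00 on the log2 scale (SE 0.81, adjusted p = 0.541), and DESeq2 at -3.72 (adjusted p = 0.0023). Over all samples Fibroblast cells held it at 67.3 CPM.

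The genotype effect in Endothelial cells was set against that in Fibroblast cells of the same samples by an interaction term. Of 18016 genes tested 0 were called (0.0%, voom-limma, adjusted p under 0.05; 1081 at an unadjusted p under 0.05), with a lowest adjusted p of 0.315. For Igfbp5 the Endothelial effect was lower than the Fibroblast effect by 3.70 on the log2 scale (interaction -3.70, SE 0.54, unadjusted p = 0.00017, adjusted p = 0.463). For Vegfc the interaction was -1.98 (SE 0.50, adjusted p = 0.611), for Csf1 -0.73 (SE 0.22, adjusted p = 0.670) and for Apln 0.70 (SE 0.29, adjusted p = 0.818). For Rpl41 it was -0.17 (SE 0.23), and for Rps20 0.12. The low-count filter of this fit took the sums of both types together, while 6682 genes were tested in the Endothelial sums alone. Genes that passed through their Fibroblast counts alone had few Endothelial UMIs, and the adjustment ran over them too. A genotype effect particular to Endothelial cells was thus not shown for any gene, and for genes of few Endothelial UMIs it could hardly be.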

How the data were processed

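Per the labels and the study's methods, the authors aligned single-cell 3′ libraries to GRCm38 with Cell Ranger 3.1.0, using exons only, and deposited raw UMI counts per gene and cell with a table of cell types; the deposited types came from clustering the same cells, and their annotation was used as given. UMI counts were summed over the Endothelial cells of each sample. The main test was voom-limma (limma 3.58.1) with TMM factors and the low-count filter of edgeR 4.0.16, without covariates, and Benjamini-Hochberg adjustment over all genes tested. The interaction with Fibroblast used sums of both types with the sample as a factor. DESeq2 1.42.0 and edgeR's quasi-likelihood test were alternatives. Only the voom-limma fits, of the genotype contrast and of the interaction, were tested on simulated data. Shares of cells were compared by exact permutation. Cells were thinned to 5000 UMIs without replacement, which left out 39 of 288 Endothelial (25 wt/wt, 14 ko/ko) and 357 Fibroblast cells. Shared 3′ sequence was measured as the percentage of 31-base words in GENCODE M21 transcript ends that other genes also hold. Symbols came from the Ensembl identifiers; Ca4 had no match under that symbol, and its current symbol Car4 was in the same list. Named genes were Dram2, Dram1 and the 6 markers; called genes, or up to 5 uncalled ones per direction with the lowest p, no overlap and 10 CPM or more; the 30 most restricted genes; and list members with the highest level, no UMI or the lowest p. The members, markers and gene lists were chosen with earlier results of these data known. Intervals cover counting error only. Of the 13 genes called by DESeq2, 1 is not reported here.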

Additional observations from a re-analysis of the deposited data

How the results depend on the processing

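The absence of calls between genotypes in Endothelial cells held in voom-limma under every alternative run with all 6 samples and in edgeR under the 1 setting run, while DESeq2 called 13 genes; without 1 sample at a time the number was 0 to 3, and the 3 appeared without Dram2 ko/ko replicate 1. Batch as a covariate gave 0 calls (386 unadjusted), as did leaving out ko/ko replicate 3, the only batch 2 sample (386 unadjusted). Both fits take the genotype difference from the batch 1 samples, so they are not separate checks. A batch effect cannot be told apart from that sample. The cell filter removed no Endothelial cell, so it could give no other result than the main fit. Sharing a replicate number paired no samples (correlations of deviations -0.07, -0.14 and -0.02), and the replicate block gave 0 calls (298 unadjusted). The interaction with Fibroblast gave 0 calls throughout. Leaving out 1 sample at a time, the difference in Endothelial share ranged from -0.85 to -0.04 percentage points.

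Of 841 log2 fold changes of 50 named genes under 17 alternatives, 23 turned sign, in 8 genes close to 0. The cell filter was 1 of the 17 and repeated the main values. Batch as a covariate came close to leaving out ko/ko replicate 3 (Plvap -0.27 and -0.26), as the design sets, since batch 2 held no other sample. With batch as a covariate Pecam1 was -0.0077, Plvap -0.27, Angpt2 -0.19 and Tagln 0.038. Angpt2 was -0.010 with library size alone and -0.0029 with no filter, and Tagln 0.0069 by edgeR, 0.0075 by DESeq2 and 0.10 without the cells of most UMIs. Without 1 sample at a time the range was -0.073 to 0.35 for Dram1, -0.0026 to 0.35 for Pecam1, -0.26 to 0.47 for Plvap, -0.071 to 0.30 for Cdh5, -0.16 to 0.076 for Cldn5, -0.19 to 0.41 for Angpt2, -0.21 to 0.020 for Nrp2, -0.33 to 0.21 for Tagln. For list medians, chosen as an alternative after seeing the data, the range without 1 sample was 0.16 to 0.40 (tip cell), 0.17 to 0.35 (glycolysis and hypoxia), -0.60 to -0.33 (mesenchymal) and -0.13 to 0.32 (pan-endothelial). Differences in marker shares (percentage points) also turned sign. Without thinning they were 0.0887 for Pecam1 and 2.29 for Apln. With 2500 UMIs per cell they were -3.17 for Plvap, -3.34 for Cdh5, 0.625 for Emcn and 11.1 for Apln. Without 1 sample at a time they ranged from -8.5 to 1.02 for Pecam1, from -4.61 to 12.9 for Plvap, from -11.5 to 0.184 for Cldn5, from -3.31 to 1.23 for Emcn. The cause of these changes was not tested. Genes of a few UMIs, such as Dll4 or Aplnr, did not pass the filter of the main fit. The mean share of thinned cells with a Dll4 UMI was 4.99% in wt/wt and 8.31% in ko/ko samples (exact permutation p = 0.7).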
